A study of Mus musculus with 4 samples.

Results

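The Slc25 genes encode the mitochondrial carrier family, and 32 of them were followed in the liver and spleen of mice fed diets rich or poor in nucleoprotein. A gene was a member when its name on the array began with Slc25a, which took 32 of 27962 gene names and 53 probes. Of these, 18 genes had 1 probe and 14 had several, and the brightest probe stood for each gene. Mitochondrial carriers are proteins of the inner mitochondrial membrane that span it several times and exchange or co-transport metabolites, nucleotides and cofactors between the cytosol and the matrix. In liver they feed the urea cycle, gluconeogenesis, fatty acid synthesis and fatty acid oxidation. In spleen, an organ of blood cells, iron import for heme synthesis and the exchange of ADP for ATP are among their best known tasks.

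The NP liver and NP spleen pools came from male C57BL/6J mice, 13 weeks old, fed for 4 weeks a purified diet supplemented with 1.2% nucleoprotein, which brought its nucleic acid content to 0.5%. The low-NP liver and low-NP spleen pools came from mice on the unsupplemented purified diet, with 0.03% nucleic acids. RNA of each diet and tissue was pooled before labelling, and the labels give no number of mice. Each tissue had 2 arrays, all on 1 slide, that took both diets in different dyes: NP was labelled with Cy5 for array 1 and with Cy3 for array 2. The labels do not settle whether the arrays of a tissue held the same pools, so each diet and tissue counts as 1 replicate, the diets were compared by fold alone, without a p-value. Each ratio is NP over low NP on the log2 scale, opposite in direction to the deposited value table, and each level is the log2 normalized signal of a probe. A gene counted as tested in a tissue if either diet's channel stood clear of background on both arrays, and it was called higher or lower if each array reached 1.5-fold in that direction.

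The low-NP pools carried markers of other tissues, and the part of these tissues in the ratios below was not tested. In spleen all 12 hepatocyte markers tested were lower in the NP pool, with a median log2 ratio of -5.73. Their summed signal was 37000 and 14000 in NP spleen on arrays 1 and 2, against 1640000 and 1190000 in low-NP spleen. In liver 8 of 10 B cell markers and 7 of 10 T cell markers were lower in the NP pool. The summed B cell signal was 5950 and 3550 in NP liver, against 47900 and 57700 in low-NP liver, and Cd79a and Blk were not above background in NP liver. All 13 markers of exocrine pancreas were lower in NP than in low NP in both tissues, with medians of -1.01 in liver and -2.12 in spleen. Between the NP pools, all 12 hepatocyte markers were higher, and all 10 B cell markers lower, in NP liver than in NP spleen. The NP pools were not free of pancreas markers either. Their summed signal was 198000 and 176000 in NP liver, and 438000 and 264000 in NP spleen. Between 58.6% and 94.7% of probes in the NP channels, and between 58.9% and 93.1% in the low-NP channels, were well above background, highest on spleen array 1. On that array the negative control spots themselves had median signals of 238 in Cy5 and 106 in Cy3, against 5.08 to 18.1 on the other arrays. The background rule therefore left out few probes there. On liver array 1 the background correction raised signals by 497 in Cy5 and 325 in Cy3, which pulls the ratios of dim probes towards 0. With a correction set from the negative control spots, the genes called lower in liver numbered 1443 of all 17100 tested, against 621 with the correction used here, while the same Slc25 members were called in both tissues. Past 1.5-fold in opposite directions on the arrays of a tissue were 41 of all genes in liver and 25 in spleen.

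A window was found for 25 of the 32 members in the RefSeq promoter table of build GRCm38.p6, which runs from 250 bases before to 50 after a gene's start. The windows of 4 members whose ratios carry the account below are printed 5′ to 3′ on the gene's strand. They are Slc25a1 (chr16:17928170-17928469, minus), Slc25a10 (chr11:120491587-120491886, plus), Slc25a13 (chr6:6217124-6217423, minus) and Slc25a4 (chr8:46211013-46211312, minus). Capitals mark matches on either strand to 5 short motifs, which did not overlap one another here.
Slc25a1: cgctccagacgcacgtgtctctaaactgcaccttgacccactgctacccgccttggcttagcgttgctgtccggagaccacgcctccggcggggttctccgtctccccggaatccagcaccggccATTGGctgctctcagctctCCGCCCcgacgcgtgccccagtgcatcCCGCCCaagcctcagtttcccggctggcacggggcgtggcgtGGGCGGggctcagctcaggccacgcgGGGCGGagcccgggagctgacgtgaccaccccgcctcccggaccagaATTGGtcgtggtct
Slc25a10: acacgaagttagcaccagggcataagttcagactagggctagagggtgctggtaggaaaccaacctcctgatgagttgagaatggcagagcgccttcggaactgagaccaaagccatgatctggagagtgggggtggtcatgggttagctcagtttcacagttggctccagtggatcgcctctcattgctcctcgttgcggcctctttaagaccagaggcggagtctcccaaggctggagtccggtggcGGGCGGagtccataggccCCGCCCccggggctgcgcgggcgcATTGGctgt
Slc25a13: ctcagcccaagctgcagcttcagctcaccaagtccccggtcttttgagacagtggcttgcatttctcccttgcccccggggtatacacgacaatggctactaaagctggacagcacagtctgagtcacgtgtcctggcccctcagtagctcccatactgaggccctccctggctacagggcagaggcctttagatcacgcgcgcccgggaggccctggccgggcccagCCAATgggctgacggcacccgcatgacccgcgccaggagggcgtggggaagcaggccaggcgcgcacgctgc
Slc25a4: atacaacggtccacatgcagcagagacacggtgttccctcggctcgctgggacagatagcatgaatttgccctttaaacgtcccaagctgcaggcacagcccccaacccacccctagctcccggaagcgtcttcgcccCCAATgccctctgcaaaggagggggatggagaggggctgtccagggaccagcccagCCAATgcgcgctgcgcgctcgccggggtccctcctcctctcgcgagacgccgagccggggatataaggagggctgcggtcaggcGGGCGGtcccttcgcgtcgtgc

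The 25 members had 34 windows, so some members count more than once. The GC box GGGCGG, bound by the Sp1 family, was in 28 of the 34 member windows and in 35.7% of all 32851 windows of the table. The CCAAT box, bound by NF-Y, was in 18 of the 34, against 37.4% of all. The TATA box, written TATAAA, was in 2 of the 34, against 13.6% of all. The NRF-1 core GCATGCGC and the nuclear receptor element AGGTCA were in 1 member window each, against 2.71% and 16.3% of all. Slc25a1 held 4 GC boxes, Slc25a10 held 2, Slc25a4 held 1 and Slc25a13 none. Such a match is a description of letters only.

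In spleen 6 of the 30 tested members were lower in the NP pool and 0 were higher. Over all 18568 genes tested in spleen 6.33% were lower and 0.0431% higher, so members were lower more often than genes at large, with no test of that difference. The lower members were Slc25a1, Slc25a10, Slc25a13, Slc25a16, Slc25a20 and Slc25a22. The median ratio of the 30 members was -0.09, beside -0.02 for all genes, and single members ran between -2.58 and 0.39. Both arrays were below 0 for 14 members, both above 0 for 6, and of opposite sign for 10. No such split over all genes is available, so these counts cannot be called high or low. Slc25a18 and Slc25a34 were not tested in spleen because their probes were not above background on both arrays.
In liver 1 of 30 tested members, Slc25a4, was lower in the NP pool and none was higher, beside 3.63% lower and 0.0702% higher over all 17100 genes tested, a share near that of genes at large. The median was 0.04 for members and 0.00 for all genes, and members ran between -0.64 and 0.39. Both arrays were above 0 for 11 members and below 0 for 5, and their signs were opposite for 14, again with no split over all genes.
Between the tissues of NP-fed mice, 9 of 30 tested members were at least 2-fold higher in NP liver than in NP spleen in both dye-matched comparisons, and 4 were lower. The corresponding shares of all 18544 genes were 13.9% and 15.1%. The diet ratio in spleen and this tissue difference share the NP spleen pool, and so are set side by side below without a measure of their likeness.

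**Figure D1:**
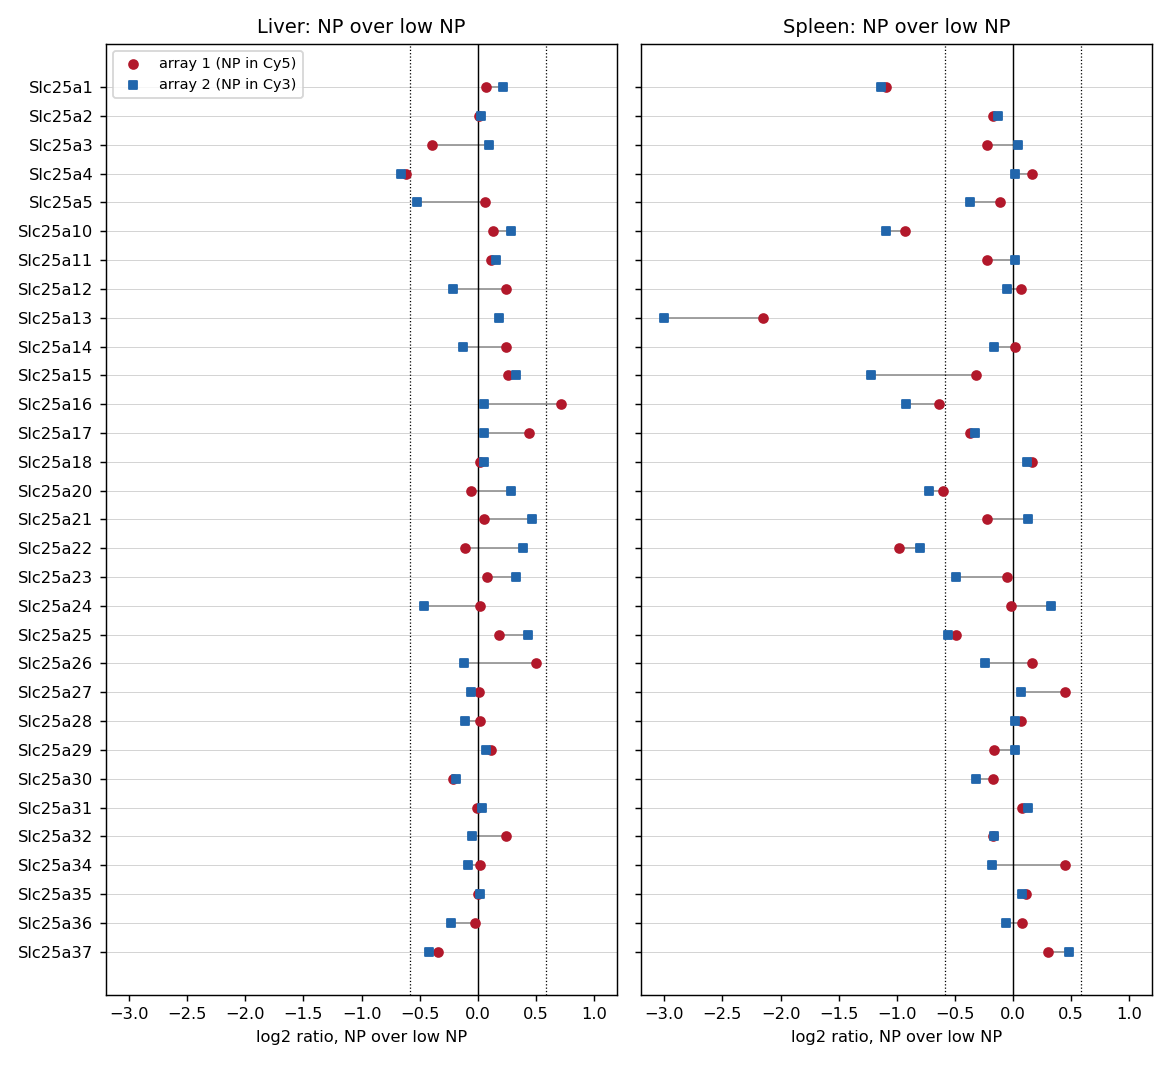
Log2 ratios of NP over low NP for 31 members in liver and spleen. Circles are array 1, squares are array 2, the line joins the arrays of a gene and dotted lines mark 1.5-fold. In spleen Slc25a13 lies farthest to the left, at -2.15 and -3.00, while in liver only Slc25a4 lies past the lower dotted line on both arrays. Slc25a13 has no array 1 value in liver.

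Among carriers of citrate and of dicarboxylates, the citrate carrier Slc25a1 and the dicarboxylate carrier Slc25a10 were lower in NP spleen. Slc25a1 exports the citrate from which cytosolic acetyl-CoA for fatty acid synthesis is made. Its probe read 9.56 and 10.08 in NP spleen, against 10.64 and 11.22 in low-NP spleen. The ratios were -1.09 and -1.14, a 2.16-fold lower signal in NP, and the diets did not overlap. In liver the same probe read 13.08 and 13.02 in NP, against 13.00 and 12.80 in low NP, and was not called at 0.07 and 0.22. NP liver exceeded NP spleen 9.38-fold.
Slc25a10 exchanges malate and succinate for phosphate. It read 10.61 on both arrays in NP spleen, against 11.53 and 11.70 in low-NP spleen, with ratios of -0.93 and -1.09. In liver it read 13.81 and 13.91 in NP, against 13.68 and 13.62 in low NP, and was not called. NP liver was 9.54-fold above NP spleen.
The oxoglutarate carrier Slc25a11, part of the malate-aspartate shuttle, read 14.26 and 14.49 in NP spleen, against 14.48 and 14.47 in low-NP spleen. In liver it read 14.15 and 14.32 in NP, against 14.04 and 14.16 in low NP. It passed neither rule, and its tissue difference was -0.11 and -0.17. Slc25a21, which carries oxodicarboxylates of lysine breakdown, was 2.51-fold higher in NP liver than in NP spleen, with diet ratios of 0.05 and 0.47 in liver and -0.22 and 0.13 in spleen. Its tissue call was lost with processed signals, with median centring and at 4-fold.

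The aspartate-glutamate carrier Slc25a13, or citrin, had the lowest ratio of the family in spleen. It moves aspartate out of the mitochondrion for the urea cycle and for the malate-aspartate shuttle, and is the main liver form of the carrier. Its probe (mm7 chr6:5994368-5994427) read 9.24 and 8.59 in NP spleen, against 11.39 and 11.59 in low-NP spleen. The ratios were -2.15 and -3.00, a 5.96-fold lower signal in NP. In liver its spot on array 1 was flagged as an outlier, which left the gene untested there. On array 2 it read 13.71 in NP liver, against 13.53 in low-NP liver. The tissue difference on that array was 5.12.
Its relative Slc25a12, or aralar, which prevails in muscle and brain, showed spleen ratios of 0.07 and -0.05 and liver ratios of 0.24 and -0.21. The glutamate carrier Slc25a22 was lower in NP spleen, at 8.58 and 9.03 against 9.55 and 9.83 in low-NP spleen, with ratios of -0.98 and -0.80. In liver it was not called, with ratios of -0.11 and 0.39, and NP liver was 8.65-fold above NP spleen. The second glutamate carrier, Slc25a18, was above background in 2 of the 8 channels and tested in neither tissue.

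The ornithine carrier Slc25a15 exchanges ornithine and citrulline across the inner membrane and so joins the mitochondrial to the cytosolic steps of the urea cycle. It read 7.51 and 7.62 in NP spleen, against 7.83 and 8.84 in low-NP spleen. The NP spleen signal was as low as that of Slc25a18, at 7.69 and 7.56, which limits the ratios. The Slc25a15 ratios of -0.32 and -1.22 were both below 0, but array 1 missed 1.5-fold, so the gene was not called. With array 2 alone it would be. The mean ratio was -0.77, and it was -1.41 with the scanner software's processed signals and with the deposited value table, again with no call. NP liver was 7.52-fold above NP spleen. Slc25a2, a second ornithine carrier, and Slc25a29, a carrier of basic amino acids, were called in no comparison.
The carnitine-acylcarnitine carrier Slc25a20 brings long-chain acyl groups to the matrix for oxidation. It read 9.81 and 9.53 in NP spleen, against 10.40 and 10.24 in low-NP spleen. The ratios of -0.60 and -0.72 lay just past 1.5-fold, and 5 of the alternative settings, a 2-fold rule among them, ended the call. In liver the ratios were -0.06 and 0.29, and NP liver was 5.33-fold above NP spleen.

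**Figure D2:**
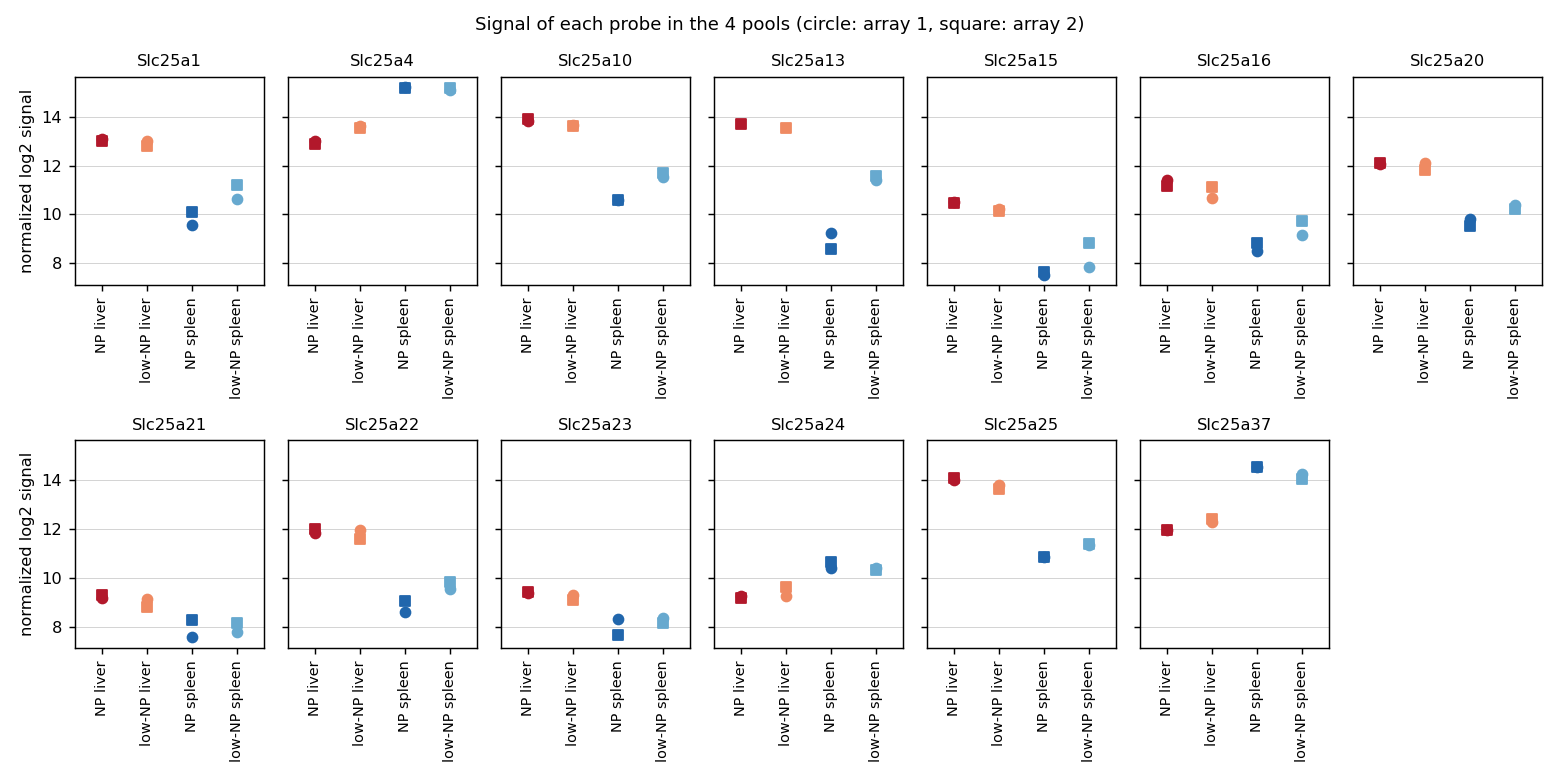
Normalized log2 signal of 13 members called between diets or between tissues, in NP liver, low-NP liver, NP spleen and low-NP spleen, with array 1 as circles and array 2 as squares. For Slc25a1, Slc25a10, Slc25a13, Slc25a16, Slc25a20 and Slc25a22 low-NP spleen lies between NP spleen and the liver pools, and for Slc25a4 low-NP liver lies between NP liver and the spleen pools.

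The ADP/ATP carriers exchange matrix ATP for cytosolic ADP. Slc25a4, the form of heart and skeletal muscle, was the 1 member lower in NP liver. Its probe (mm7 chr8:44985343-44985402) read 13.00 and 12.89 in NP liver, against 13.61 and 13.55 in low-NP liver. The ratios were -0.62 and -0.66, a 1.56-fold lower signal in NP, with no overlap between the diets. A second probe of the gene gave -1.07 and -0.97. With median centring in place of loess the mean of the brighter probe was -0.40 and the call was lost. In spleen the brighter probe read 15.24 and 15.19 in NP, against 15.08 and 15.17 in low NP, and was not called. NP liver was 4.84-fold below NP spleen. Of 10 muscle markers 3 were tested in liver and 0 were called, and 0 of 12 hepatocyte markers were called there. Lower in NP liver were 8 of 10 B cell, 7 of 10 T cell and 13 of 13 exocrine pancreas markers. So were 4 of 12 macrophage and 3 of 9 erythroid markers, beside 3.63% of all genes. The part of any of these cell types in the Slc25a4 ratios was not tested.
Slc25a5, the ADP/ATP carrier of dividing cells, read 16.52 and 16.10 in NP liver, against 16.46 and 16.62 in low-NP liver. In spleen it read 16.30 and 16.31 in NP, against 16.41 and 16.68 in low NP. The liver arrays had opposite signs and neither tissue gave a call. Slc25a31, the form of the testis, was above background in 6 of the 8 channels and read between 7.60 and 7.94. Its ratios lay within 0.13 of 0 in both tissues on both arrays, which says little at so low a signal. With processed signals its mean in spleen was 0.42.
The phosphate carrier Slc25a3, which supplies phosphate for ATP synthesis, read 14.11 and 14.24 in NP liver, against 14.49 and 14.14 in low-NP liver. In spleen it read 14.13 and 14.36 in NP, against 14.35 and 14.33 in low NP. The array ratios differed in sign in each tissue.

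The 3 ATP-Mg/phosphate carriers, which calcium regulates and which set the adenine nucleotide content of the matrix, differed between the tissues in opposite directions. Slc25a25 was 9.14-fold and Slc25a23 2.69-fold higher in NP liver than in NP spleen, whereas Slc25a24 was 2.48-fold lower. A dimmer probe of Slc25a24 gave -0.04 and -0.38 between the tissues, and its call was lost with the median over probes. The call of Slc25a23 was lost with processed signals, and both calls were lost at 4-fold. Slc25a25 read 10.85 and 10.84 in NP spleen, against 11.34 and 11.40 in low-NP spleen. Its spleen ratios of -0.49 and -0.56 lay just inside 1.5-fold. In liver it read 14.00 and 14.08 in NP, against 13.82 and 13.65 in low NP. Slc25a23 had spleen ratios of -0.05 and -0.49, and Slc25a24 of -0.02 and 0.33, so none of the 3 was called between diets.

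Among carriers of cofactors, Slc25a16, linked to coenzyme A in mitochondria, was lower in NP spleen. It read 8.52 and 8.81 in NP spleen, against 9.15 and 9.73 in low-NP spleen, with ratios of -0.64 and -0.92. In liver array 1 gave 0.72 and array 2 gave 0.05, so no call was made. NP liver was 6.16-fold above NP spleen. Without background correction, with median centring in place of loess, and at 2-fold, its call in spleen was lost.
Slc25a17, a carrier of the peroxisomal membrane for coenzyme A and related cofactors, read 13.23 and 13.33 in NP spleen, against 13.59 and 13.66 in low-NP spleen. In liver it read 14.20 and 14.15 in NP, against 13.76 and 14.10 in low NP. Its 3 probes gave spleen ratios between -0.43 and -0.32, and none reached 1.5-fold. Between the tissues the brightest probe gave 0.98 and 0.82, short of 2-fold. The dimmer probes gave 1.35 and 1.29, and 1.77 and 1.46. With the median over probes Slc25a17 was called higher in NP liver than in NP spleen. The S-adenosylmethionine carrier Slc25a26, the folate and FAD carrier Slc25a32 and the pyrimidine nucleotide carrier Slc25a36 were called in no comparison, with mean diet ratios between -0.16 and 0.19.

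The mitoferrins bring iron into mitochondria for heme and iron-sulphur clusters. Slc25a37, or mitoferrin 1, serves developing red cells. It read 14.56 and 14.54 in NP spleen, against 14.26 and 14.06 in low-NP spleen, with ratios of 0.30 and 0.48. In liver it read 11.95 and 11.97 in NP, against 12.30 and 12.40 in low NP, with ratios of -0.34 and -0.42. Neither tissue reached 1.5-fold, although the arrays did not overlap between diets in either. NP liver was 6.01-fold below NP spleen. Erythroid markers had a median of 0.50 in spleen, with 3 of 13 higher in NP, and of -0.30 in liver, with 3 of 9 lower in NP. Their summed signal in spleen was 758000 and 550000 in NP, against 358000 and 644000 in low NP, so the sums put the diets in opposite orders. The sums include 2 saturated globin probes, Hba-a1 and Hbb-b1, with spleen ratios of 1.02 and -0.31 and of 1.32 and -0.32. The other erythroid markers were all above 0 on both spleen arrays. The part of erythroid cells in the Slc25a37 ratios was not tested. A dimmer probe of Slc25a37 gave -0.03 and 0.07 in liver and -0.05 and 0.25 in spleen. Slc25a28, or mitoferrin 2, which is widely expressed, had ratios of 0.02 and -0.11 in liver and 0.07 and 0.02 in spleen.
The uncoupling protein relatives Slc25a14, Slc25a27 and Slc25a30, and Slc25a34 and Slc25a35, whose substrates are less settled, were called in no comparison. Slc25a30 came nearest between the tissues, at 1.19 and 0.98, just short of 2-fold on array 2.

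**Figure D3:**
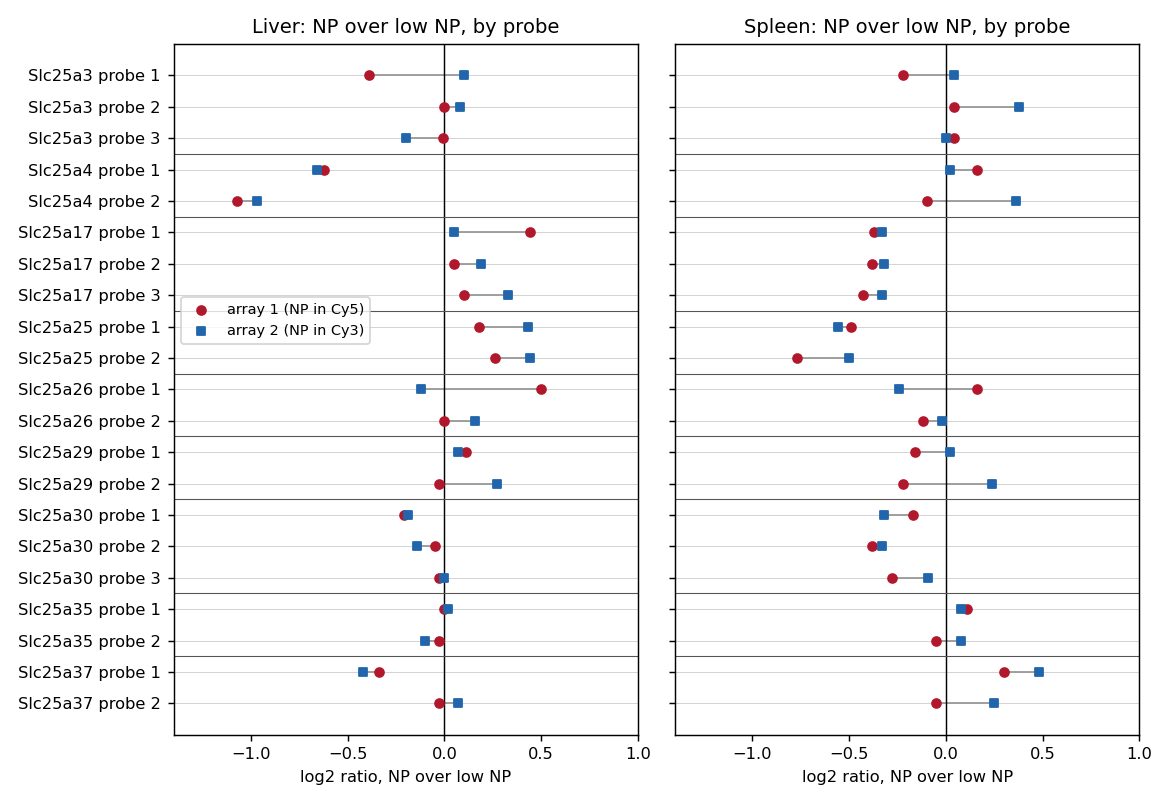
Log2 ratios of NP over low NP for the 21 probes, above background in all 8 channels, of the 9 members with several such probes, in liver and spleen. Circles are array 1 and squares array 2, with horizontal lines between genes. Both Slc25a4 probes lie below -0.6 in liver, and the Slc25a17 probes lie together in spleen, while the dimmer Slc25a37 probe lies nearer 0 than the brighter one in liver.

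To set the spleen ratios beside the hepatocyte markers, the low-NP minus NP difference in linear signal was expressed as a percentage of the NP liver signal of the same probe. On arrays 1 and 2 it came to 9.80% and 15.6% for Slc25a1, 9.78% and 11.5% for Slc25a10, and 7.56% and 17.3% for Slc25a16. It was 10.8% on both arrays for Slc25a20, 10% and 9.54% for Slc25a22, and 20.2% on array 2 for Slc25a13. The members with a higher signal in NP liver that were not called in spleen ran from -4.28% for Slc25a21 to 18.7% for Slc25a15. Hepatocyte markers had medians of 34.6% and 37.3%, with single values from 13.3% to 247%. Urea cycle enzymes, which share Cps1 and Ass1 with those markers, had medians of 20.3% and 22.6%, with single values from 15.0% to 31.1%. On array 2 Slc25a1, Slc25a13 and Slc25a16 lay within both ranges. Slc25a10, Slc25a20 and Slc25a22 lay below both ranges on both arrays, as did Slc25a1 and Slc25a16 on array 1. In liver the same difference as a percentage of the NP spleen signal was 11.2% and 11.8% for Slc25a4 and -0.635% and 13.3% for Slc25a24, beside medians of 10.1% and 19.3% for B cell markers. It was 4.42% and 5.71% for Slc25a37, beside medians of 0.181% and 1.25% for the unsaturated erythroid markers. In pooled tissue RNA, fewer cells of a type and less RNA per cell cannot be told apart. The part of hepatocyte RNA in the spleen ratios was not tested.

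Carriers that the array lists under older or other names were described in the same way. Of 21 such labels, 16 were tested in spleen and 1 was lower in NP, a share near the 6.33% of all genes. This was AI132487, now Slc25a47, a carrier found mainly in liver. It read 9.81 and 9.30 in NP spleen, against 13.05 and 13.14 in low-NP spleen, with ratios of -3.24 and -3.84, and 15.20 and 15.31 in NP liver. In liver 15 were tested and 1 was lower in NP, beside 3.63% of all genes. This was the uncoupling protein Ucp2, which is abundant in immune cells. Ucp2 read 9.34 and 9.04 in NP liver, against 9.93 and 10.04 in low-NP liver, with ratios of -0.59 and -1.0, and was lower in NP liver than in NP spleen by 2.31 and 2.92 on the log2 scale. Higher in NP liver than in NP spleen were 5 of 16 tested, beside 13.9% of all genes, namely Slc25a47, the outer membrane protein Mtch2, Slc25a33, which carries pyrimidine nucleotides, Slc25a39, needed for mitochondrial glutathione, and Slc25a44, a carrier of branched-chain amino acids.

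Enzymes that work with the carriers were taken from lists, and none of their members was called between diets in liver. Over all tested genes 3.63% were lower in liver and 6.33% in spleen, so lists this short can hold none by that share alone. In spleen 8 of 9 urea cycle genes were lower in NP, with a median of -3.41. Cps1, which makes carbamoyl phosphate, had ratios of -6.45 and -7.72, and Otc, which joins it to ornithine, of -5.62 and -6.41. Of shuttle enzymes 4 of 7 were lower, among them the glycerol-3-phosphate dehydrogenase Gpd1 at -2.47 and -2.61 and the aspartate aminotransferase Got1 at -1.59 and -1.55. Of the genes of citrate use and fatty acid synthesis 4 of 9 were lower, including the acetyl-CoA carboxylase Acacb at -1.61 and -1.76 and the fatty acid synthase Fasn at -1.34 and -1.44. Of the genes of carnitine and fatty acid oxidation 4 of 10 were lower, including Cpt2, the partner of Slc25a20 at the inner membrane, at -1.17 and -1.14, and Acadvl, which oxidises very long acyl chains, at -1.4 and -1.05. Of heme synthesis genes 2 of 12 were lower, namely Alas1, the first enzyme of the pathway outside red cells, at -1.47 and -1.65, and the transporter Abcb6 at -0.62 and -0.88. Of other mitochondrial transporters 3 of 15 were lower, namely Brp44l and Brp44, the subunits of the pyruvate carrier, at -0.72 and -0.69 and at -0.93 and -1.01, and the sideroflexin Sfxn5 at -0.76 and -0.69. None of the 11 genes for importing carriers into the inner membrane was called in spleen, which is near the 6.33% of all genes for so short a list.

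**Figure D4:**
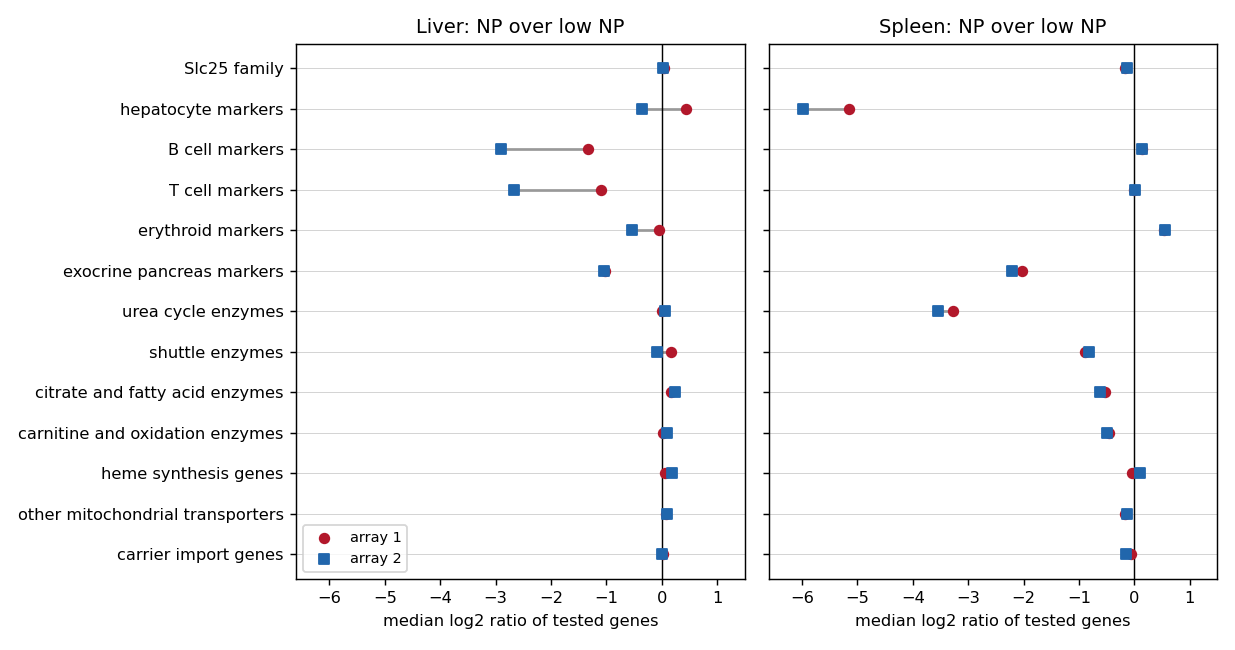
Median log2 ratio of NP over low NP of the tested genes of each list, in liver and spleen, with array 1 as circles and array 2 as squares. In spleen the hepatocyte markers, urea cycle enzymes and exocrine pancreas markers lie farthest below 0, and the Slc25 family lies near 0 in both tissues at 0.04 and 0.02 in liver and -0.17 and -0.14 in spleen.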

How the data were processed

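The members and lists were chosen with earlier results of these data known. The deposited scanner files hold the intensity of each spot in both dyes, with local background and flags, and the software's processed intensity, per the file headers. Per the file headers, a log10 ratio and a p-value of spot error are included as well, the p-value not used here. Agilent Feature Extraction 9.5.3.1 was used, per the submitters' processing notes. The deposited value table holds log10 ratios. Its columns correlated with the scanner's NP over low NP at -0.992, -0.991, -0.993 and -0.998, so it gives low NP over NP, and its medians of 0.02, -0.07, -0.01 and -0.04 show that it is not centred. The sources used here do not state how it was made.

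Of 45018 spots per array, 1639 were controls and 109 to 180 were outliers, given no weight. In limma 3.58.1 under R 4.3.3, mean signals were corrected with normexp (offset 50) and normalized by loess within arrays, with Aquantile between arrays for signals. The number of arrays limits the precision. Probe positions are in mm7, per the file headers. The calling rule was tried on simulated ratios with random noise and planted changes of 2-fold or more. That checked the calling step only, since the simulation held no dye, background or tissue effect and no change near 1.5-fold. The values of 1 member, which the counts include, are not reported here. Values of all arrays are given for members called between diets and for the 8 with the highest signal in NP liver or NP spleen, and of each partner list for up to 4 called genes. Results were recomputed in 9 other ways (no background correction, processed signals, median centring, the value table, other probe, background and fold rules, each array left out) and in 1 chosen after seeing the data (normexp from negative controls). Python 3.11.15 was used for tables.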

Additional observations from a re-analysis of the deposited data

Results flagged for a closer look

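Of 29 members tested in both tissues, 10 had ratios of one sign on both liver arrays and of the opposite sign on both spleen arrays. No share over all genes is available for this pattern, so the count cannot be called high or low. It takes ratios of any size, such as 0.01 and 0.03 for Slc25a2 in liver and 0.16 and 0.02 for Slc25a4 in spleen. The difference between tissues was not tested, no member was called in both tissues, and Slc25a2, Slc25a15, Slc25a17, Slc25a23, Slc25a25 and Slc25a37 were called in neither. The mean log2 ratio in liver minus that in spleen was 1.26 for Slc25a1, 1.22 for Slc25a10, 1.17 for Slc25a16, 1.06 for Slc25a15, 0.83 for Slc25a25, 0.60 for Slc25a17, 0.48 for Slc25a23 and 0.17 for Slc25a2, all above 0 in liver and below 0 in spleen. It was -0.77 for Slc25a37 and -0.73 for Slc25a4, which were below 0 in liver and above 0 in spleen.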

How the results depend on the processing

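No paired analysis was possible because each array already pairs NP with low NP and, with 1 pool per diet and tissue, no replicates remain for a block. The call of Slc25a4 in liver was lost (0 members lower) with median centring and at 2-fold. The median of members in liver was 0.17 with the scanner software's processed signals and with the deposited value table, 0.14 with median centring and 0.07 with probes above background in every channel, and the number higher in liver ran from 0 to 1 when an array was left out, the 1 being Slc25a16 on array 1 alone. In spleen 2 members were lower at 2-fold, Slc25a1 and Slc25a13, and the median was -0.03 with processed signals, -0.27 with median centring, -0.02 with the value table and between -0.17 and -0.14 when an array was left out. Median centring also moved the median of all genes from -0.02 to -0.15 in spleen. Slc25a20 lost its call in spleen without background correction, with median centring, with processed signals, with the value table and at 2-fold, and Slc25a16 with the first 2 of these and at 2-fold. Between tissues 8 members were lower in NP liver with processed signals and 2 at 4-fold. The cause of these changes was not tested, except that stricter folds call fewer genes by construction. Of values of single members, arrays left out aside, 326 stayed within 1 SD of the arrays, 91 moved by more, and no called member changed sign. With normexp from negative controls, all-gene counts were 1443 lower in liver, against 621. Probes near background limit Slc25a18 and Slc25a34, and low signals limit Slc25a31 and, in NP spleen, Slc25a15.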
